A study of Mus musculus with 3 samples.

Results

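The regions described here are 5344 places in the mouse genome that carry a nearly perfect NFI palindrome but were not called as NFI sites. They were found on the mm9 sequence of chromosomes 1 to 19 as matches to the palindrome TTGGCANNNTGCCAA with at most 1 mismatch at its 12 fixed positions. Of 5662 such matches, 318 lay within 300 bp of an interval in the deposited list of in vivo sites and were left out, and the 5344 others are the members. Without mismatch there were 119 members, and 5225 had 1 mismatch.

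Tags were taken from 3 libraries of primary mouse embryonic fibroblasts of strain C57BL/6, isolated from embryos of 14.5 days and grown to passages 6 to 7. The wild-type (WT) ChIP and the knock-out (KO) ChIP were precipitated with an antibody against the NFI group of proteins. Their chromatin came from wild-type fibroblasts and from fibroblasts of NFI-C knock-out embryos, whose Nfic gene carries an insertion. The input was genomic DNA of wild-type fibroblasts sequenced without antibody. The labels of the KO sample disagree, since its short description mentions wild-type cells, and here its title decided. ChIP tags do not show whether Nfic was disrupted, so that the label was not checked. The study's text states that its expression data came from the same embryo, which ties the WT cells to a single embryo. For the KO cells the number of embryos is not given in the sources used here. There was 1 library per condition, so that every value describes these libraries and no test of the conditions was possible.

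Nuclear factor I (NFI) proteins are transcription factors that bind DNA as dimers, each protein of the pair contacting 1 arm of the palindrome. Vertebrates have the 4 family genes Nfia, Nfib, Nfic and Nfix, whose products share the DNA-binding domain and recognise the same motif, so that an antibody against the group can precipitate other members in cells without NFI-C. Trimethylation of histone H3 at lysine 4 (H3K4me3) marks active or poised promoters, that at lysine 36 (H3K36me3) marks transcribed gene bodies, and that at lysine 27 (H3K27me3) marks Polycomb-repressed chromatin. Lamina domains are large stretches of mostly silent chromatin at the nuclear periphery.

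The sequences below are members without mismatch, shown because their tags are the base for judging what a mismatch changes. They are the 6 members without mismatch that had the most tags in both ChIP libraries together. Capitals mark bases equal to a fixed position of the palindrome, the distance and place refer to the nearest protein-coding gene, and the coordinates are those of the match of 15 bp on the forward strand of mm9, shown with its neighbouring bases.
Fxyd5, 15125 bp downstream, chr7:31802609-31802623: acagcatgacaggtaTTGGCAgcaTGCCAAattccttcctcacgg
Jazf1, intron, chr6:52791893-52791907: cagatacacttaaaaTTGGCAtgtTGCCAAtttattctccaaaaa
Irs2, 30408 bp upstream, chr8:11038859-11038873: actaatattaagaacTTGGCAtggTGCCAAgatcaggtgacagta
Rhot1, intron, chr11:80060696-80060710: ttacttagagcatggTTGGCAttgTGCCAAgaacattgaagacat
Ctnnd2, 437049 bp upstream, chr15:29665292-29665306: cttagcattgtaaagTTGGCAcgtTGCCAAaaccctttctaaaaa
Slc38a2, 10609 bp downstream, chr15:96507209-96507223: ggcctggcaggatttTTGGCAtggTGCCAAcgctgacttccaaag

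The next sequences have 1 mismatch, and were among the members with the most ChIP tags of a region class that had at most 2 input tags. They are shown because the lower-case letter inside a palindrome arm is the base in which they depart from it. The departures of Wif1, Iqgap2, Lpar1, Sdk1 and Dab1 lie in the outer pair of bases of an arm, and that of Col6a4 does not. Members chosen in the same way but not shown were Ccdc41, with A15G in the outer pair, and several with departures outside it. These were Zfp608 with T10A, Ankdd1a with G11C, Tmem106b with C5T and Gm6741 with C12T, so that the sequences shown are no tally of positions.
Wif1, intron, A14C, chr10:120492682-120492696: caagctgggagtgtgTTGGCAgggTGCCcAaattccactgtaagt
Iqgap2, intron, A14C, chr13:96411739-96411753: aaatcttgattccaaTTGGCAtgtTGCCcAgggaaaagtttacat
Lpar1, intron, A15T, chr4:58548083-58548097: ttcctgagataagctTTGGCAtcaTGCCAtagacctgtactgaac
Sdk1, intron, A15G, chr5:142038390-142038404: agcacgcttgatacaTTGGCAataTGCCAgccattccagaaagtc
Dab1, intron, A14T, chr4:103750568-103750582: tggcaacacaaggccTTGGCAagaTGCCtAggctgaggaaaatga
Col6a4, intron, C5A, chr9:105908032-105908046: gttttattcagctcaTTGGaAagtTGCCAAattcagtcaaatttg
Each substitution gives the base of the palindrome, its position from 1 at the left end of the 15 bases on the forward strand, and the base of the member.

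With at most 1 unique tag counted per position and strand, chromosomes 1 to 19 held 3186944 tags in the WT ChIP, 2978316 in the KO ChIP and 3920580 in the input. Each distinct tag was read on average 2.91 times in the WT ChIP, 3.46 times in the KO ChIP and 1.32 times in the input. The mean per 300 bp was 0.399, 0.373 and 0.491 tags in that order, so that a single member holds few tags and the values below are sums over members. A level is given as the fold over this mean of its library, with a 95% interval in parentheses that covers counting error only.

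Over all members the WT ChIP had 3446 tags in the 300 bp around the palindrome, 1.61 times its mean (1.56 to 1.67). The KO ChIP had 3326 tags, 1.67 times its mean (1.61 to 1.73), and the input had 2747 tags, 1.05 times its mean (1.01 to 1.09). Scaled to library size, the WT ChIP was 1.54 times the input (1.47 to 1.62) and the KO ChIP 1.59 times (1.51 to 1.68). Both immunoprecipitations thus held more tags than the input at palindromes where no site was called. The KO over WT ratio was 1.03 (0.984 to 1.08), an interval that includes equality. The sites had been called on WT tags, and the KO and input tags played no part in that choice. With the 318 left-out matches put back, the levels were 2.05 in the WT ChIP, 1.85 in the KO ChIP and 1.07 in the input, the WT ChIP was 1.91 times the input (1.83 to 2.00), the KO ChIP 1.72 times (1.64 to 1.80), and the KO over WT ratio 0.898 (0.860 to 0.937).

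In both ChIP libraries the tags of each strand gathered on their own side of the palindrome. In the WT ChIP, forward tags peaked just left of the palindrome, with 2.13 times the mean in the last 50 bp before its centre, and reverse tags just right of it, with 2.18 times the mean in the first 50 bp from its centre. In the KO ChIP the forward strand peaked at 2.23 times the mean from 150 to 101 bp before the centre, and the reverse strand at 2.09 times from 50 to 99 bp after it. Beyond 1000 bp no window of 50 bp in either ChIP library exceeded 1.27 times the mean on a strand. In the input the forward strand lay between 1.00 and 1.05 times the mean within 150 bp of the centre, and the reverse strand between 0.932 and 1.20 times.

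**Figure D1:**
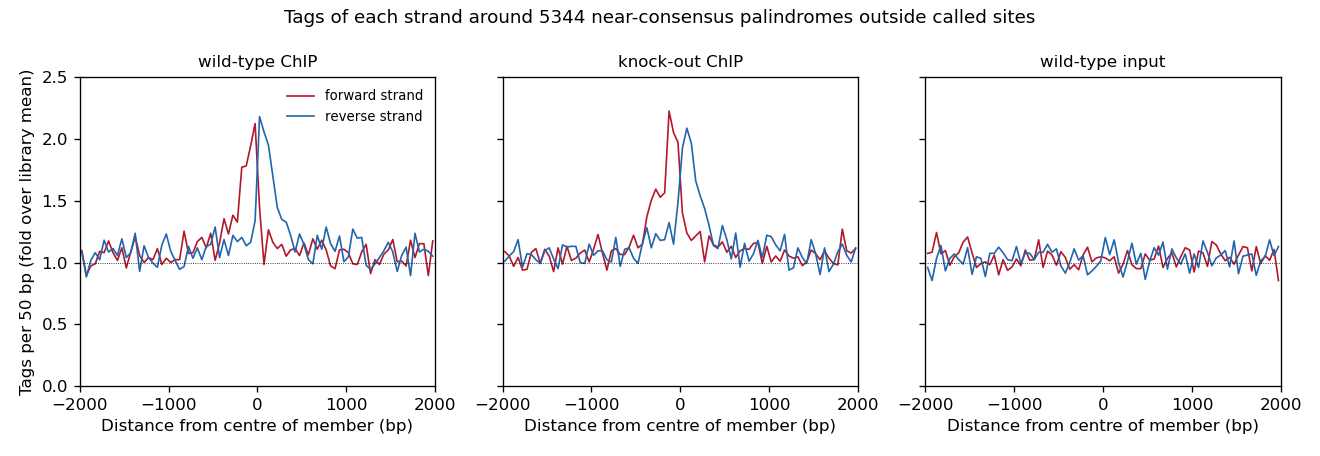
Tags of each strand (5′ ends) in windows of 50 bp around the 5344 members, as the fold over the mean of that library, against the distance from the centre of the palindrome in bp. Both ChIP libraries show a forward peak left and a reverse peak right of the centre, above 2 times the mean, while within 150 bp the input stays between 0.932 and 1.20 times, with its highest reverse window in the first 50 bp right of the centre.

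The levels of both ChIP libraries differed with the position of the mismatch. Positions were counted from 1 at the outer end of an arm to 6 beside the 3 free central bases, and both arms were put together by reading the right arm on the reverse strand. Members without mismatch had 165 tags in the WT ChIP, 3.47 times the mean (2.96 to 4.04), 108 tags in the KO ChIP, 2.43 times (1.99 to 2.94), and 54 in the input, 0.924 times (0.694 to 1.21). A mismatch at an end of the arm left much of this. At position 6 the WT ChIP had 2.52 times its mean (2.32 to 2.73) over 588 members, and at position 1 it had 2.20 times (2.04 to 2.37) over 828 members. A mismatch at the pair of guanines inside the arm left little. At position 3 the WT level was 0.977 times the mean (0.872 to 1.09) over 810 members, and at position 4 it was 1.15 times (1.06 to 1.25) over 1301 members. Positions 2 and 5 lay between, with 1.50 (1.36 to 1.65) and 1.58 (1.46 to 1.71).

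The KO ChIP had the same order at the ends and the middle of the arm. Its level was 2.11 times the mean (1.95 to 2.28) for a mismatch at position 1 and 2.39 times (2.19 to 2.61) at position 6, against 1.11 (0.999 to 1.24) at position 3 and 1.20 (1.10 to 1.30) at position 4. Position 6 over position 3 was 2.58 (2.24 to 2.96) in the WT ChIP and 2.15 (1.87 to 2.47) in the KO ChIP, and 1.04 (0.896 to 1.21) in the input. Position 6 over position 4 was 2.19 (1.95 to 2.45), 2.00 (1.77 to 2.25) and 1.11 (0.964 to 1.28) in the same order of libraries. Position 1 over position 2 was 1.47 (1.30 to 1.66) in the WT ChIP but 1.10 (0.980 to 1.24) in the KO ChIP, an interval that includes equality. The input level ran from 0.954 to 1.21 over the 6 positions, highest at position 1, where the surrounding 300 bp also had the most G and C, 44.4% on average against 41.3% at position 3.

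At position 2 the KO ChIP stood above the WT ChIP, with 530 tags, 1.92 times its mean (1.76 to 2.09), and a KO over WT ratio of 1.28 (1.13 to 1.46). With the matches near a called site put back the ratio was 1.09 (0.970 to 1.22), so that the interval then included equality. At members without mismatch the KO ChIP stood below, at 0.700 of the WT ChIP (0.544 to 0.898), and at 0.666 (0.549 to 0.806) over all 150 matches without mismatch.

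**Figure D2:**
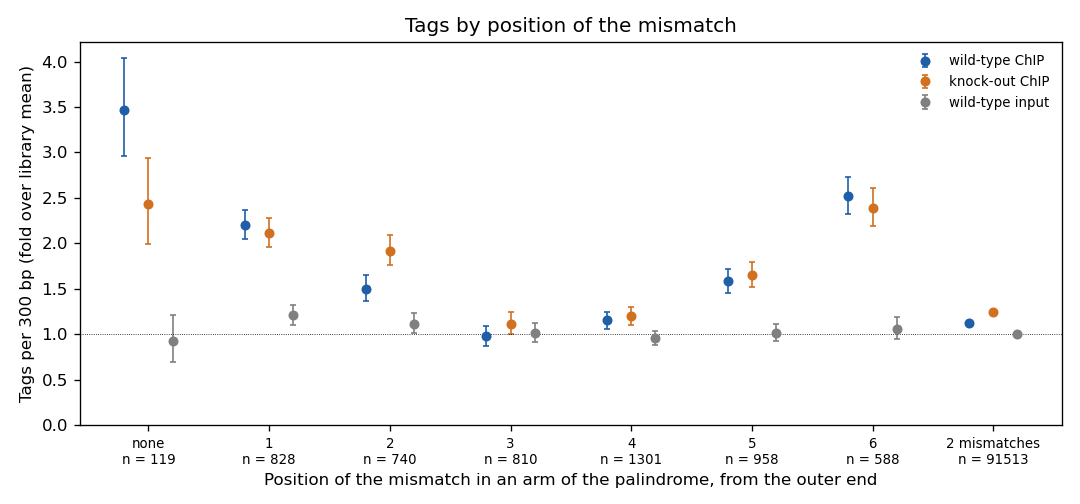
Tags in 300 bp as the fold over the mean of each library, for members without mismatch, with the mismatch at each position of an arm, and, to the right, for 91513 matches with 2 mismatches outside called sites. Points are sums over the members (n under the axis) and bars are 95% counting intervals; both ChIP libraries dip to near 1 at positions 3 and 4 while the input stays between 0.924 and 1.21.

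At some positions the level also differed with the base that replaced the consensus. Substitutions are written by position in the arm. T1C kept 2.80 times the mean in the WT ChIP (2.51 to 3.11) over 307 members, whereas T1A had 1.98 (1.73 to 2.26) and T1G 1.69 (1.44 to 1.97). In the KO ChIP T1C was also the highest, at 2.66 (2.37 to 2.98), while T1G at 2.00 (1.72 to 2.32) stood above T1A at 1.61 (1.38 to 1.87), with overlapping intervals. T2G had 1.86 (1.65 to 2.09), above T2A at 1.15 (0.974 to 1.35), and in the KO ChIP these levels were 2.12 (1.89 to 2.38) and 1.73 (1.51 to 1.98), which overlap. C5A had 1.88 (1.66 to 2.11), above C5G at 1.35 (1.16 to 1.56), whereas in the KO ChIP they had 1.82 (1.60 to 2.06) and 1.62 (1.40 to 1.86), which overlap. A6T had 2.60 (2.35 to 2.87) and A6C 2.29 (1.95 to 2.67), intervals that overlap. The lowest WT level was that of G3A, 0.859 (0.711 to 1.03), with 1.02 (0.853 to 1.21) in the KO ChIP and 0.997 (0.853 to 1.16) in the input. These pairs were picked after their values were seen.

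Substitutions that make a CpG with the neighbouring fixed base were rare. T2C, G3C and A6G, the 3 kinds of this type, had 39, 38 and 27 members, while the other 15 kinds had from 177 to 497. CpG is depleted in vertebrate genomes, but whether this bears on the counts was not tested. The mean percentage of G and C around these members, from 43.5% to 44.8%, lay within the range of the other kinds, from 40.1% to 45.4%. A6G had 30 tags in the WT ChIP and 12 in the KO ChIP, levels of 2.78 (1.88 to 3.97) and 1.19 (0.615 to 2.08). In the WT ChIP its interval overlaps those of A6C and A6T. In the KO ChIP it lay just below those of A6C at 2.45 (2.09 to 2.86) and A6T at 2.45 (2.20 to 2.72), a difference that rests on the 12 tags.

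Matches also differed by position in how often they lay near a called site, and the list of sites was called on the same WT library. Of the 150 matches without mismatch, 20.7% (14.5 to 28.0) lay within 300 bp of a deposited site. The share was 10.4% for a mismatch at position 1 and 10.4% at position 6, 5.25% at position 2, 4.49% at position 5, 1.81% at position 4 and 1.58% at position 3. The choice of members thus left out a larger share of the matches at the ends of the arm than at positions 3 and 4. With these matches put back, the WT level was 4.77 (4.24 to 5.36) without mismatch, 3.30 (3.08 to 3.52) at position 6, 2.99 (2.81 to 3.17) at position 1 and 1.07 (0.959 to 1.19) at position 3.

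Just outside the threshold on mismatches, 91513 matches with 2 mismatches outside called sites had 1.12 times the mean in the WT ChIP, 1.24 times in the KO ChIP and 1.00 times in the input. Just inside the threshold on distance, the 74 members 301 to 600 bp from a site had 2.64, 2.32 and 1.32 times the mean, and just outside it the 91 matches 151 to 300 bp away had 7.68, 4.27 and 1.79 times. Sites were called on these WT tags, so that a high WT level close to a site follows in part from the call. The median member lay 24514 bp from the nearest site, and the 1447 members more than 50 kb away still had 1.37 times the mean in the WT ChIP (1.27 to 1.47) and 1.30 times in the KO ChIP (1.20 to 1.40), against 0.854 times in the input (0.787 to 0.924). Their window was on average 86.6% uniquely mappable, against 96.3% for members 10001 to 50000 bp from a site.

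**Figure D3:**
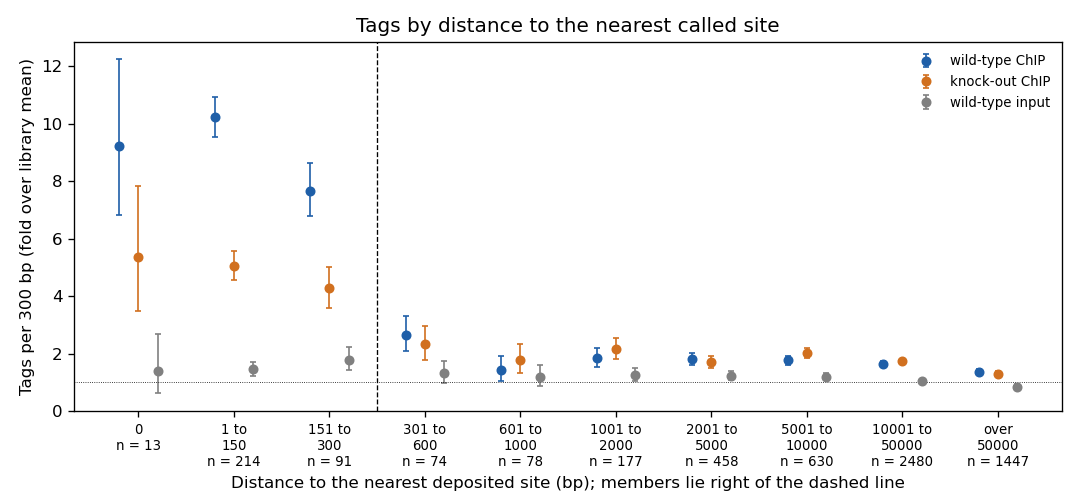
Tags in 300 bp as the fold over the mean of each library, by distance from the match to the nearest deposited site in bp. Sites were called on the WT tags, so that WT levels close to a site follow in part from the call. Points are sums over the matches (n under the axis), bars are 95% counting intervals, and members lie right of the dashed line, where the WT level is 2.64 at 301 to 600 bp, 1.44 at 601 to 1000 bp, 1.85 at 1001 to 2000 bp and then lower in each group, down to 1.37 beyond 50000 bp.

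The deposited files hold regions rich in the 3 histone marks, made from public ChIP-Seq of mouse embryonic fibroblasts, and lamina domains. The latter were mapped in human Tig3 fibroblasts and carried over to mm9, so that they stand for the mouse lamina only as far as the domains are shared. H3K4me3-rich regions covered 19.9% of chromosomes 1 to 19 and held 1144 members, H3K36me3-rich regions covered 20.4% and held 1074, H3K27me3-rich regions covered 41.0% and held 2483, and lamina domains covered 39.3% and held 2125. The remaining unmarked sequence, 20.6%, held 939 members. Members per Mb ran from 1.90 in unmarked sequence to 2.53 in H3K27me3-rich regions. Regions of this extent reach far beyond promoters, and 36.8% of the members lay in more than 1 class, among them 717 in both H3K4me3- and H3K27me3-rich regions, so that the classes are not independent of each other.

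Levels at the members ran in 1 order of classes, from H3K4me3 to unmarked in the ChIP libraries, and the input followed most of it. The WT ChIP had 2.09 times its mean at H3K4me3 members (1.96 to 2.23), 2.02 at H3K36me3 (1.89 to 2.16), 1.70 at H3K27me3 (1.62 to 1.78), 1.50 at lamina (1.42 to 1.58) and 1.35 at unmarked members (1.23 to 1.47). The neighbours H3K4me3 and H3K36me3 in this order have overlapping intervals, as do lamina and unmarked. In the input the levels were 1.31 (1.22 to 1.41), 1.38 (1.28 to 1.48), 1.16 (1.10 to 1.23), 0.963 (0.904 to 1.02) and 0.763 (0.685 to 0.847) in the same order of classes. The input was thus lowest in the class with the lowest WT level, and H3K36me3 and H3K4me3 members stood in the opposite order in it, with overlapping intervals.

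The background of each class, measured in all consecutive windows of 300 bp outside called sites, moved the same way. Such windows had 1.22 times the mean in the WT ChIP, 1.34 in the KO ChIP and 1.56 in the input in H3K4me3-rich regions, and 0.702, 0.724 and 0.645 in unmarked sequence. They had 1.17, 1.245 and 1.39 in H3K36me3-rich regions, 1.06, 1.14 and 1.23 in H3K27me3-rich regions, and 0.890, 0.925 and 0.865 in lamina domains. The input thus lay above both ChIP libraries in the histone classes and below them in lamina domains and unmarked sequence. Ratios to the input below were not divided by this background. The G and C content around members was 44.6% in H3K4me3-rich regions and 39.5% in unmarked sequence, and uniquely mappable positions made up 97.9% and 84.5% of the window. Unmarked members weighted to the G and C content of a class, and members whose window was at least 80% mappable, are therefore used beside the input below.

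Divided by the input, the members did not keep the order of classes, in ratios that also carry the difference between ChIP and input in the background of each class. The WT ChIP was 1.60 times the input at H3K4me3 members (1.45 to 1.76), 1.47 at H3K36me3 (1.33 to 1.62), 1.46 at H3K27me3 (1.36 to 1.57), 1.56 at lamina (1.43 to 1.69) and 1.77 at unmarked members (1.54 to 2.03). Set against unmarked members, the ratio was 0.904 for H3K4me3 (0.765 to 1.07) and 0.880 for lamina (0.751 to 1.03), intervals that include equality, and 0.829 for H3K36me3 (0.701 to 0.981) and 0.826 for H3K27me3 (0.708 to 0.962), which do not. With weights for G and C these 4 values were 0.926, 0.893, 0.860 and 0.846, and with mappable windows 0.888, 0.861, 0.817 and 0.813. Both lower values depended on the processing. There were 12 alternatives with an interval, leaving aside the count of every tag, in which repeated reads are not independent. Among them, leaving out members of 10 or more tags removed none and so repeated the value reported. With it included, the interval for H3K36me3 stayed below equality in 8 and that for H3K27me3 in 9. It included equality when each library was scaled by its tags 500 to 5000 bp from the same members, at 1.02 for H3K36me3 (0.864 to 1.21) and 0.986 for H3K27me3 (0.846 to 1.15), in a window of 200 bp, at 0.910 (0.741 to 1.12) and 0.888 (0.736 to 1.07), and with the matches near called sites put back, at 0.965 (0.826 to 1.13) and 0.936 (0.810 to 1.08). With tags shifted by 75 bp it included equality for H3K36me3 (0.743 to 1.03). Lamina against unmarked lay below equality over members more than 5000 bp from every site, at 0.832 (0.703 to 0.986). The 64 members in H3K4me3-rich regions alone had 63 WT and 27 input tags, 2.87 times the input (1.80 to 4.69) and 1.62 times the ratio of unmarked members (1.01 to 2.60). Their input level was 0.859 (0.566 to 1.25), against 1.31 at all H3K4me3 members, and their WT level 2.46 (1.89 to 3.15), which overlaps that of all H3K4me3 members. Centre over flank against unmarked was 1.13 (0.862 to 1.48) for these 64, which includes equality. They were not set against the H3K4me3 members shared with other classes.

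The centre over the flanks sets each group of members against its own surroundings. These hold called sites where a site lies within 5000 bp, as for 25.6% of the H3K4me3 members and 7.77% of the unmarked ones, and members 1001 to 2000 bp from a site had a flank level of 1.53 in the WT ChIP, 1.21 in the KO ChIP and 1.20 in the input, with a WT centre over flank of 1.21 (1.02 to 1.44). In the WT ChIP the 300 bp at the centre had 1.58 times the tags per bp of the flanks at H3K4me3 members (1.48 to 1.69), 1.61 at H3K36me3 (1.50 to 1.72), 1.50 at H3K27me3 (1.43 to 1.57), 1.49 at lamina (1.41 to 1.58) and 1.65 at unmarked members (1.51 to 1.80). In none of the 4 marked classes did the interval of the ratio to unmarked members leave out equality, and these intervals together ran from 0.815 to 1.09. This held for the members as chosen and not under every alternative. With the matches near called sites put back, H3K4me3 lay above unmarked 1.20-fold (1.09 to 1.32) and H3K36me3 1.17-fold (1.06 to 1.29). Over members more than 5000 bp from every site, centre over flank was 1.75 at H3K4me3 (1.62 to 1.88), 1.72 at H3K36me3 (1.59 to 1.86), 1.55 at H3K27me3 (1.47 to 1.64), 1.54 at lamina (1.45 to 1.64) and 1.76 at unmarked members (1.60 to 1.93). The ratio to unmarked was then 0.992 for H3K4me3 (0.880 to 1.12) and 0.979 for H3K36me3 (0.867 to 1.11), and lay below equality for H3K27me3 at 0.881 (0.790 to 0.982) and for lamina at 0.875 (0.782 to 0.978). Both also lay below unmarked in windows at least 80% mappable, H3K27me3 at 0.870 (0.783 to 0.968) and lamina at 0.874 (0.783 to 0.976), and lamina with tags shifted by 75 bp, at 0.879 (0.793 to 0.975). In the input the centre was 0.920 times the flanks at H3K4me3 members (0.855 to 0.990) and between 0.975 and 1.06 times in the other classes.

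**Figure D4:**
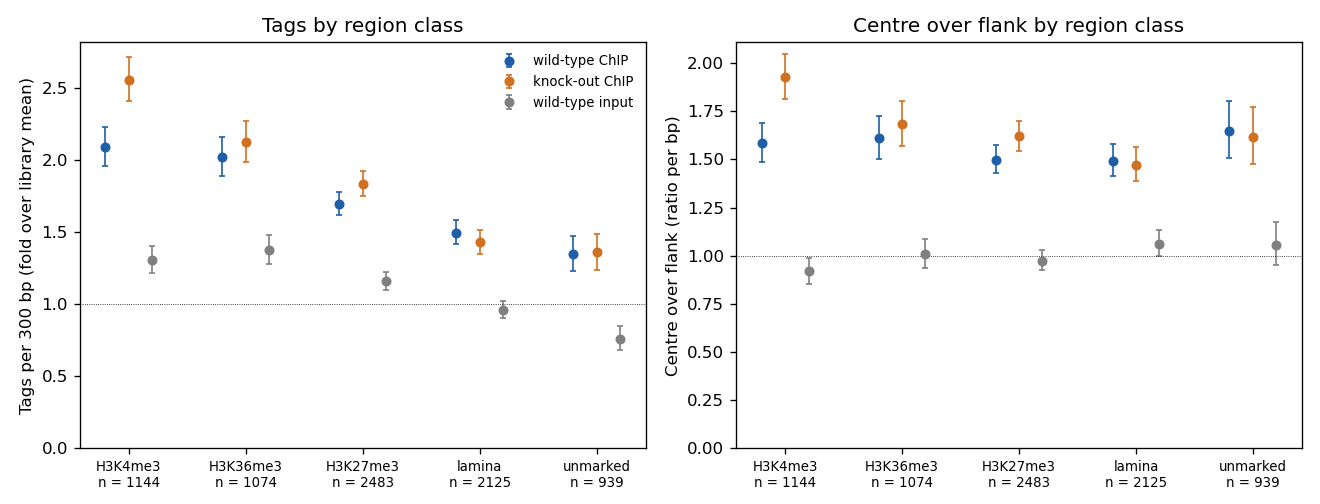
Left, tags in 300 bp as the fold over the mean of each library, by region class; right, tags per bp in the central 300 bp over those 500 to 5000 bp away. Points are sums over the members (n under the axis; a member can be in several classes) and bars are 95% counting intervals; the WT levels fall from 2.09 to 1.35 on the left, while centre over flank stays between 1.49 and 1.65 on the right.

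The KO ChIP had its highest level of the 5 classes at H3K4me3 members. It had 1094 tags there, 2.56 times its mean (2.41 to 2.72), 1.96 times the input (1.78 to 2.15) and 1.93 times its flanks (1.81 to 2.05). Its ratio to the input was 1.10 times that of unmarked members (0.929 to 1.30), an interval that includes equality, and at lamina members 0.833 times (0.709 to 0.980), which does not. With the matches near called sites put back, the lamina value was 0.879 (0.751 to 1.03), which includes equality. Against unmarked members the centre over flank at H3K4me3 members was higher 1.19-fold (1.07 to 1.33), while that of the input was 0.870 of the unmarked value (0.765 to 0.990). Over members more than 5000 bp from every site the ratio of KO centre over flank to unmarked was 1.23 (1.10 to 1.39). The KO over WT ratio of 1.22 (1.12 to 1.34) was higher than at unmarked members 1.21-fold (1.04 to 1.41). Both values were smaller with unmarked members weighted to the G and C content of the H3K4me3 members, at 1.04 for KO centre over flank and 1.10 for KO over WT, and KO over input was then 1.015 times the unmarked value. No interval was computed for the weighted values. The KO level also lay above the WT level in windows outside called sites, at 1.34 and 1.22 in H3K4me3-rich regions and 0.724 and 0.702 in unmarked sequence. The KO over WT ratios of the members were not divided by those of the windows. The choice of members bears on the KO over WT ratio, since 11.6% of the H3K4me3 matches but 3.00% of the unmarked ones had been left out for lying near a site called on WT tags. Over all matches the KO over WT ratio was 0.976 in H3K4me3-rich regions and 0.893 in unmarked sequence, a ratio of 1.09 (0.952 to 1.26), and the KO over input ratio was 2.15 and 1.81, a ratio of 1.19 (1.01 to 1.39). Among H3K4me3 members, those also in H3K27me3-rich regions had a KO over WT ratio of 1.25 (1.12 to 1.39) and the 427 others 1.19 (1.03 to 1.37), which overlap. The 194 that lay in lamina domains had 1.29 (1.04 to 1.61).

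The effect of the mismatch position was present in every region class. Members without mismatch or with the mismatch at an end of the arm, position 1 or 6, were set beside those with the mismatch at position 3 or 4, a grouping chosen after the values of all members were seen. In the WT ChIP the first group had 2.92 times the mean in H3K4me3-rich regions (2.66 to 3.21), 2.95 in H3K36me3 (2.67 to 3.25), 2.43 in H3K27me3 (2.26 to 2.62), 2.17 in lamina (1.99 to 2.37) and 2.10 in unmarked sequence (1.82 to 2.41). The second group had 1.39 (1.21 to 1.58), 1.38 (1.21 to 1.58), 1.12 (1.02 to 1.23), 1.04 (0.938 to 1.16) and 0.957 (0.809 to 1.12). In the KO ChIP the first group ran from 3.33 in H3K4me3-rich regions to 1.80 in unmarked sequence, and the second from 1.66 to 0.920. The intervals of both groups did not overlap in any class in either ChIP library. In the input they overlapped in each class, with levels of 1.30 and 1.30 in H3K4me3-rich regions and 0.891 and 0.684 in unmarked sequence. WT over input in the second group was 1.07 (0.893 to 1.28), 1.04 (0.862 to 1.25), 1.03 (0.906 to 1.18), 1.15 (0.991 to 1.32) and 1.40 (1.10 to 1.78), highest in unmarked sequence. KO over input in this group was 1.28 (1.07 to 1.53) in H3K4me3-rich regions and 1.35 (1.05 to 1.73) in unmarked sequence. In the latter it overlapped that of the first group, 2.02 (1.58 to 2.61).

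**Figure D5:**
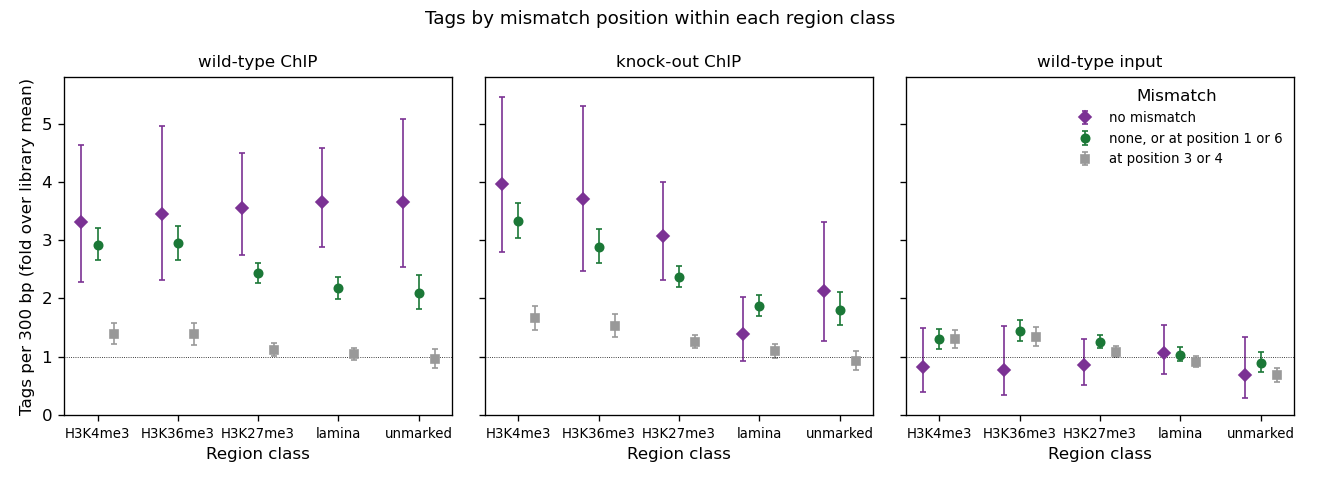
Tags in 300 bp as the fold over the mean of each library in the 5 region classes, for members without mismatch (diamonds), members without mismatch or with the mismatch at position 1 or 6 (circles, which include the diamonds) and members with the mismatch at position 3 or 4 (squares). Bars are 95% counting intervals; circles lie above squares in both ChIP libraries in every class, and the diamonds of the KO ChIP run from 3.96 at H3K4me3 to 1.39 at lamina.

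Members without mismatch differed between the libraries by class. Inside lamina domains the 52 members without mismatch had 76 WT, 27 KO and 27 input tags. The median was 1 tag in the WT ChIP and 0 in the KO ChIP, with at most 4 and 3 tags at a member. The WT ChIP had more tags than the KO ChIP at 34 of these members, fewer at 5 and as many at 13, of which 9 had none in either. Outside lamina domains the 67 members without mismatch had 89 WT, 81 KO and 27 input tags, with the WT ChIP higher at 26 and the KO ChIP higher at 20. Scaled to library size, the KO over WT ratio was 0.380 in lamina domains (0.236 to 0.597) and 0.974 outside (0.712 to 1.33), and the first was 0.390 of the second (0.229 to 0.665). With the matches near a called site put back, the ratios were 0.543 (0.400 to 0.731) and 0.778 (0.602 to 1.00), and the first was 0.698 of the second (0.477 to 1.02), an interval that includes equality. At the 2073 lamina members with 1 mismatch the KO over WT ratio was 0.991 (0.913 to 1.08). The comparison was picked after the values by class were seen.

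Single members held few tags. At least 3 tags were found at 279 members in the WT ChIP, 5.22% (4.64 to 5.85), against 1.37% of all windows of 300 bp outside called sites. In the KO ChIP 273 members had at least 3 tags, 5.11% (4.53 to 5.73), against 1.52% of windows, and in the input 104 members did, 1.95% (1.59 to 2.35), against 2.08% of windows. Of the members without mismatch, 17.6% (11.3 to 25.7) had at least 3 WT tags, 10.9% (5.95 to 18.0) at least 3 KO tags and 1.68% (0.204 to 5.94) at least 3 input tags. No tag of any library was found at 1322 members, or 24.7%, and no member had more than 7 WT, 9 KO or 9 input tags.

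By class the share with at least 3 WT tags was 7.52% at H3K4me3 members against 2.04% of windows in such regions, 7.26% at H3K36me3 against 1.88%, 5.56% at H3K27me3 against 1.59%, 4.66% at lamina against 1.23%, and 4.15% at unmarked members against 0.919%. In the KO ChIP it was 10.2% at H3K4me3 members against 2.71% of windows, 7.17% at H3K36me3 against 2.25%, 6.04% at H3K27me3 against 1.93%, 3.76% at lamina against 1.29%, and 3.83% at unmarked members against 0.9%. In the input the share was 3.06% (2.14 to 4.23) at H3K4me3 members, below the 4.96% of their windows. In the other classes the interval held the share of the windows, with 2.89% (1.97 to 4.07) against 3.85% at H3K36me3, 2.66% (2.06 to 3.37) against 3.12% at H3K27me3, 1.93% (1.39 to 2.61) against 1.41% at lamina, and 0.745% (0.300 to 1.53) against 0.856% at unmarked members.

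At least 3 tags in both ChIP libraries were found at 36 members. This is 12.9% of the 279 members with at least 3 WT tags, against 5.11% of all members with at least 3 KO tags, and 13.2% of the 273, against 5.22% of all members with at least 3 WT tags. At least 3 input tags were found at 10 of the 279, 3.58%, and at 8 of the 273, 2.93%, against 1.95% of all members. The level of the KO ChIP was also higher where the WT ChIP had more tags. It was 1.38 times the mean (1.31 to 1.45) at the 3121 members without WT tag, 1.75 (1.64 to 1.87) at those with 1, 2.44 (2.23 to 2.66) at those with 2, and 2.50 (2.16 to 2.88), 3.88 (3.03 to 4.90) and 4.43 (3.13 to 6.08) at those with 3, 4 and at least 5. The input also moved with the WT tags, from 0.991 (0.942 to 1.04) without WT tag to 1.26 (1.05 to 1.50) with 3, 1.91 (1.40 to 2.55) with 4 and 1.42 (0.809 to 2.30) with at least 5. Divided by the input, the KO ChIP was 1.39 (1.30 to 1.49) without WT tag, 1.68 (1.52 to 1.86) with 1, and 2.04 (1.78 to 2.36), 1.98 (1.58 to 2.50), 2.03 (1.38 to 3.01) and 3.13 (1.70 to 6.01) with 2, 3, 4 and at least 5, and the last 4 intervals overlap.

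Among the members without mismatch shown above, the one in unmarked sequence 15125 bp downstream of Fxyd5, a regulator of the sodium pump, had 4 WT, 6 KO and 0 input tags. The member in an intron of Jazf1, a zinc finger cofactor of transcription, had 2, 6 and 1, and that upstream of Irs2, an adaptor of the insulin receptor, had 4, 4 and 1. The member in an intron of Rhot1, a mitochondrial GTPase, had 2, 5 and 0, that far upstream of Ctnnd2, a catenin of neurons, had 4, 3 and 2, and that downstream of Slc38a2, an amino acid transporter, had 6, 1 and 0. At each of them the ChIP tags outnumbered the input, an order that the choice for ChIP tags favours. With counts of this size the order of the libraries within a member cannot be read.

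The members with 1 mismatch named next had the most ChIP tags of a region class among members with at most 2 input tags. Their low input counts follow from this rule. They come from 5225 members with 1 mismatch, against 119 without, so that the highest counts of both groups are not compared. The member in an intron of Wif1, which encodes a secreted inhibitor of Wnt signalling, had 3 WT, 9 KO and 0 input tags and lay 1244 bp from the nearest called site. That in an intron of Ccdc41, a protein of the centriole, with A15G, had 1, 9 and 0. The member in an intron of Iqgap2, a cytoskeletal scaffold, had 4, 5 and 1 and lay 599 bp from a called site, and that in an intron of Lpar1, a receptor for lysophosphatidic acid, had 5, 4 and 0. A member in an intron of Zfp608 on chromosome 18, with T10A, had 4, 5 and 2.

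In lamina domains the member in an intron of Sdk1, a cell adhesion protein of synapses, had 7 WT, 3 KO and 2 input tags, and that in an intron of Col6a4, a collagen VI chain, had 1, 7 and 2. In unmarked sequence the member in an intron of Dab1, an adaptor of reelin signalling, had 6, 6 and 1, and that nearest to Gm6741, 624651 bp away, with C12T, had 2, 7 and 0. Among H3K27me3 members, that in an intron of Ankdd1a, 375 bp from a called site and with G11C, had 3, 7 and 1, and that 24654 bp downstream of Tmem106b, a lysosomal membrane protein, with C5T, had 5, 5 and 1. The members named by these rules were chosen for their ChIP tags, which are therefore given as a description.

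The 3 members with the most input tags were chosen for these tags, which are therefore also given as a description. All 3 had more tags in the input than in either ChIP library, an order that the choice favours. They lay 267 bp upstream of Clec16a, with 1 WT, 1 KO and 9 input tags, in an untranslated region of Hk1, the gene of hexokinase 1, with 4, 3 and 7, and in an untranslated region of Gatsl2, with 2, 0 and 7. Both untranslated regions had much G and C, 65.7% and 68.7% in 300 bp, against 42.4% on average over all members. By annotation, 2130 members or 39.9% lay in a protein-coding gene. Of these, 1961 lay in an intron, 81 in an untranslated region and 88 in an exon outside annotated untranslated regions. Within 5 kb upstream of a transcript start of such a gene lay 367 members, a count that can include members inside a gene. The WT ChIP was 1.49 times the input at members in introns (1.38 to 1.62), 1.56 upstream of the nearest gene (1.42 to 1.72) and 1.67 downstream (1.52 to 1.84). At members in untranslated regions it was 0.914 times the input (0.626 to 1.33), where the input level was 1.76 (1.37 to 2.22).

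Gene families were taken by the start of the symbol, counting members in a gene or within 10 kb of it. Olfactory receptor genes, which are silent in fibroblasts, had 56 members, of which 29 were unmarked and 24 in lamina domains, with a WT level of 1.16 (0.759 to 1.70), a KO level of 1.05 (0.660 to 1.59) and an input level of 0.763 (0.472 to 1.17). Vomeronasal receptor genes had 12 members, 10 of them unmarked, with 7 WT, 3 KO and 1 input tag. Zinc finger genes with the symbol Zfp had 36 members with levels of 1.81 (1.18 to 2.65), 2.31 (1.57 to 3.27) and 1.07 (0.647 to 1.68). Potassium channel genes (Kcn) had 30 members with 16, 22 and 19 tags in the WT ChIP, KO ChIP and input, cadherins (Cdh) 15 with 6, 6 and 6, collagens 9 with 8, 10 and 4, semaphorins 8 with 4, 2 and 6, genes with the symbol Itg 7 with 3, 3 and 1, and Pcdh15, the protocadherin that had members, 3 with 3, 1 and 2. Of the NFI genes, Nfia had 2 members with 0, 3 and 0 tags, and no member lay near a Hox gene. The WT intervals of all these families include the WT level of 1.61 of all members. In the KO ChIP the interval of the olfactory receptors lay below the level of 1.67 of all members but held those of unmarked and lamina members, 1.36 and 1.43, the classes of most members of this family. In the input the interval of the vomeronasal receptors, 0.170 (0.00429 to 0.945), lay below the level of 1.05 of all members and held that of unmarked members, 0.763.

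Members were also grouped by sequence outside the fixed positions. By the free central bases, WT levels ran from 1.59 to 1.66 for members with 0 to 3 G or C among them. A further arm of the motif (TTGGCA or its complement TGCCAA, searched on both strands and not overlapping the palindrome) lay in the 300 bp of 17.5% of the members, while 14.4% of all windows of 300 bp hold such a hexamer. The 814 members with 1 further arm had a WT level of 1.61 (1.47 to 1.75), against 1.64 (1.58 to 1.70) at the 4410 without. The 120 members with more had 0.876 (0.632 to 1.18) in the WT ChIP and 0.628 (0.442 to 0.865) in the input, and their windows were on average 67.2% uniquely mappable, against 94.6% for members without a further arm. By G and C around the member, the WT over input ratio was 1.58 (1.38 to 1.81) over 785 members below 35%, 1.80 (1.61 to 2.02) at 35 to 40% and 1.07 (0.856 to 1.34) above 55%, while centre over flank in the WT ChIP stayed between 1.49 and 1.63 in all 6 groups by G and C. In the KO ChIP centre over flank ran from 1.44 (1.30 to 1.58) below 35% to 2.06 (1.76 to 2.42) above 55%, and was higher in each group than in the one before. Divided by the input, the KO ChIP showed no such rise. It was 1.44 (1.25 to 1.66) below 35%, 1.77 (1.58 to 1.99) at 35 to 40% and 1.25 (1.00 to 1.55) above 55%. Centre over flank in the input was 1.13 (1.02 to 1.25) below 35%, 0.935 (0.857 to 1.02) at 35 to 40% and 1.25 (1.08 to 1.46) above 55%. KO over WT was 0.915 (0.801 to 1.04) below 35%, 1.24 (1.07 to 1.43) at 50 to 55% and 1.16 (0.926 to 1.46) above 55%.

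Some members are copies of 1 repeated sequence. The 32 bases around the centre occur more than once in the genome at 224 members, whose levels were 0.548, 0.538 and 0.282 in the WT ChIP, KO ChIP and input, since tags that map to several places were not counted. The largest group was a tandem array on chromosome 13 with 36 members, chr13:71157189-71159599, 133815 bp downstream of 8030423J24Rik, in an H3K27me3-rich region and a lamina domain. Its repeat unit of 61 bp is shown because each copy carries the palindrome with G4A. The copies are not all identical, and 25 of the 36 share the same central 32 bases, so that these members are not 36 independent sequences.
Repeat unit, chr13:71158553-71158613: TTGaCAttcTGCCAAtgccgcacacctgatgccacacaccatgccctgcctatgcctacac
No position was uniquely mappable at 24 of these members, and the array had 0 WT, 2 KO and 0 input tags. Without it the WT level of G4A was 1.22 over 343 members, against 1.10 (0.942 to 1.28) over 379 with it.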

How the data were processed

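The authors mapped the reads with ELAND to mm9 (NCBI build 37) and deposited all of them with their positions, without normalization. Each read was placed by its first 32 bases. The authors made the list of in vivo sites with ChIP-peak (300 bp window, tags shifted by 75 bp, 1 tag per position, repeat filter, threshold of 5 tags) and the H3K4me3-, H3K36me3- and H3K27me3-rich regions with ChIP-PART. Their positions were used as deposited, and no value in another unit was taken from the files.

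Here unique tags with at most 2 mismatches were pooled over the sequencing runs of a library (3 in the ChIP libraries, 2 in the input), limited to 1 per position and strand, and counted by 5′ end in 300 bp at the centre of each member and from 500 to 5000 bp on both sides. Ratios between libraries were scaled to the totals on chromosomes 1 to 19. Intervals are 95%, exact binomial for shares and ratios of tag sums, exact Poisson for levels, and a normal approximation of the log ratio for centre over flank and ratios between classes. They take tags as independent counts and hold no spread between cultures. Genes are the protein-coding genes of GENCODE vM1, which uses the same build. A position was called uniquely mappable when its 32 bases occurred once in the genome, on either strand.

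Members and gene lists were chosen with earlier results of these data known. Members were named by fixed rules: the 6 without mismatch with the most ChIP tags, in each class the 3 with the most ChIP tags among those with at most 2 input tags, and the 3 with the most input tags. Simulated tags were uniform apart from known ratios. On them, 14 of 16 ratios over all 5344 members had the known value within their intervals. Centre over flank for H3K27me3 and lamina was estimated too high in the simulation, with the known value below the interval. After this result the simulated tags were also counted over the 5158 members with no other match within 5300 bp, whose tags are counted for 1 member only, and 16 of 16 intervals held the known value. In the WT ChIP itself, centre over flank over these 5158 members was not lower than over all members. It was 1.53 against 1.50 for H3K27me3 and 1.53 against 1.49 for lamina. Of 2000 exact reads checked per library, 2000 equalled the genome at the stated position. Files on miRNA loci were not used here. Region positions were read from the authors' lists of boundaries, so that the classes hold the regions listed there. The pairing of boundaries with sites was not used. The repeat filter was not repeated. Counting was done in Python 3.11.15 with Numba 0.67.0 and NumPy 2.4.6, intervals with SciPy 1.17.1, summaries with pandas 2.3.3 and figures with matplotlib 3.10.9.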

Additional observations from a re-analysis of the deposited data

How the results depend on the processing

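Of 326 alternative values, 275 lay within the 95% counting interval of the value reported and 51 lay outside it. Among the latter 1 changed the direction of a ratio whose interval had left out equality. The 275 include the alternative without members of 10 or more tags, which removed none and so could only return the value reported. The values that moved are given here, and their causes were not tested. With the matches near called sites put back (chosen after seeing the data), the ChIP over input ratio at the matches was 1.91 in the WT and 1.72 in the KO. WT over input was then 2.21 for H3K4me3, 1.96 for H3K36me3, 1.90 for H3K27me3 and 1.85 for lamina, and H3K4me3 against unmarked 1.09. Centre over flank was 2.28, 2.22, 1.96 and 1.79 in the same order and 1.90 for unmarked, its ratio to unmarked was 1.20 for H3K4me3, 1.17 for H3K36me3 and 1.03 for H3K27me3, and position 6 over 4, 6 over 3 and 1 over 3 in the WT ChIP were 2.62, 3.09 and 2.80. In a window of 600 bp the ratios over input were 1.44 and 1.48, H3K4me3 over input 1.44, centre over flank 1.43, 1.44, 1.38, 1.36 and 1.47, and the WT position ratios 1.79, 2.08 and 1.87. In 200 bp, H3K27me3 centre over flank was 1.58, and over members more than 5000 bp from a site, chosen after seeing the data, that of H3K4me3 was 1.75. With tags shifted by 75 bp the ratios over input were 1.65 and 1.68, H3K27me3 over input 1.57, centre over flank 1.74 for H3K4me3, 1.76 for H3K36me3 and 1.62 for H3K27me3, and WT position 6 over 3 and 1 over 3 were 3.12 and 2.70. The position ratios of the KO ChIP stayed within their intervals under the alternatives run for them. Counting every tag gave 1.63 and 1.70 over input, and members without mismatch alone 3.76 and 2.63. Scaled by flanks, lamina over input was 1.40, and H3K4me3, H3K36me3 and H3K27me3 against unmarked were 1.10, 1.02 (from 0.829, the change of direction) and 0.986. With members of 1 class only, H3K4me3 over input was 2.87, its centre over flank 1.86, or 1.13 against unmarked, and H3K4me3 over input against unmarked 1.62.

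Over the 5158 members with no other match within 5300 bp, a choice made after seeing the data, all 26 values lay within the interval of the value reported. No member had 10 or more tags in a library, so that leaving such members out changed nothing. Without each sequencing run of the WT ChIP in turn, the WT over input ratio ran from 1.53 to 1.55. No paired analysis was possible because each condition had 1 library, and the depth, under 1 tag per member and library on average, limits the values to sums over members.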
